A study of Mus musculus with 10 samples.

Results

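Early Sox17-high cells are single cells from days 3 to 8 of chemical reprogramming that were selected on their *Sox17* level, 20 CPM or more (CPM are counts scaled to the depth of each cell). They were compared with Sox17-negative cells of the same days, in which no *Sox17* molecule was counted. Of 808 cells in the series, 670 had at least 4000 detected genes, and 319 of these came from the groups d3, d4, d5, d6p, d8 and d8c. Among the 319 cells, 22 were Sox17-high (6.90%, exact Clopper-Pearson interval 4.37% to 10.3%), 207 were Sox17-negative, and 90 lay between with at least 1 molecule but under 20 CPM (intermediate cells). Since the groups were chosen by *Sox17*, its own values are a description, and every other gene was compared.

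The cells were mouse embryonic fibroblasts (MEFs), a mixed primary culture made from E13.5 ICR embryos after head, limbs and viscera had been taken off, and all early cells had been given the C6FAE cocktail. C6FAE is CHIR99021, an inhibitor of the kinase GSK3 that switches on Wnt signaling, the TGF-beta receptor inhibitor abbreviated 6, the adenylyl cyclase activator Forskolin, the retinoic acid receptor agonist AM580 and the DOT1L inhibitor EPZ004777, and its aim is a state like extraembryonic endoderm (XEN). Groups d3, d4, d5 and d8 are cells of the whole culture on those days, d8c cells came from colonies on day 8, and d6p was taken as day 6, with the meaning of p not stated. The authors' counts are of unique molecular identifiers (UMIs), so that copies of 1 RNA molecule made by amplification are counted once. The series lists 10 batches, but cell names show only time point and running number, so all cells formed 1 sample without replicates, and differences carry no p-value.

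*Sox17* encodes an SRY-box transcription factor that is needed for endoderm, extraembryonic endoderm included, and it also acts in arterial endothelium and in blood stem cells of the fetus. In XEN cells it works with *Sall4*, *Gata4*, *Gata6*, *Foxa2* and *Sox7*, whereas fibroblasts are marked by *Prrx1*, *Twist1*, *Twist2* and *Osr1* and by a collagen-rich matrix. The study asked how the cocktail sets the fate of fibroblasts on the way to the XEN state.

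The Sox17-high cells were spread over the course, with 2 of 38 cells at d3, 6 of 77 at d4, 4 of 36 at d5, 2 of 86 at d6p, 6 of 62 at d8 and 2 of 20 at d8c. None of the 72 cells at d0, 40 at d1 and 83 at d2 reached 20 CPM. Their *Sox17* level (NCBIM37 chromosome 1, 4481009 to 4486494) ran from 22.9 CPM through a median of 102 CPM to 561 CPM. They held 2905 *Sox17* UMIs in all, and 12 cells had at least 60, but 4 cells passed the threshold with 3 or fewer. Just inside the threshold lay d8 cells with 22.9 CPM (3 UMIs), 23.2 CPM (2 UMIs) and 30.3 CPM (32 UMIs). Just outside lay a d8 cell with 10.7 CPM (2 UMIs), a d5 cell with 10.2 CPM (17 UMIs) and a d8 cell with 9.46 CPM (23 UMIs), so that no cell fell between 10.7 and 22.9 CPM. The Sox17-high cells stood at 2.34% to 57.1% (median 10.4%) of the mean *Sox17* of d20 cells, 982 CPM. For 11 genes abundant at d20 (200 CPM or more) and nearly silent at d0 (2 CPM or less), the median level per cell was 0% of the d20 mean and at most 0.00416%. Of the 11 genes, 0 to 6 had a UMI in a given Sox17-high cell. In the shallowest cells a level near that of *Sox17* would give few or no UMIs of such genes, and a part of RNA from XEN-like cells in the *Sox17* level was not tested.

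**Figure D1:**
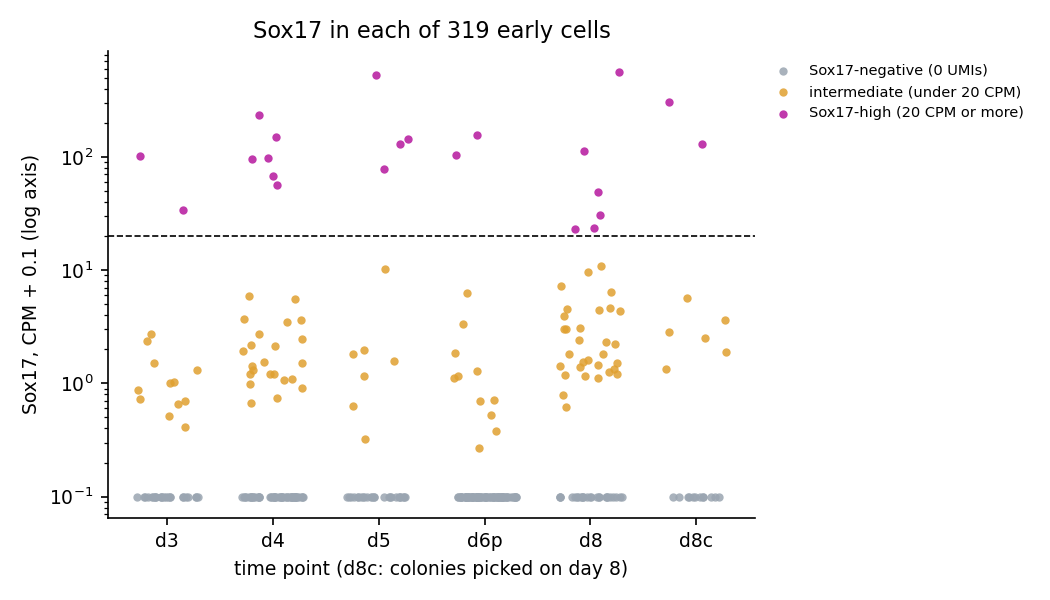
*Sox17* in CPM (with 0.1 added, log axis) in each of 319 early cells by time point, colored by group, with the dashed line at 20 CPM. The 22 Sox17-high cells occur at all 6 time points and lie apart from the 90 intermediate cells, of which the highest has 10.7 CPM.

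Depth differed between cells and has to be read with every value. The Sox17-high cells held 17633 to 3729645 UMIs (median 498146) and the Sox17-negative cells 23081 to 3443963 (median 375704), while intermediate cells were deeper (median 939566). A count of 0 allows up to 3 UMIs, which at 150000 UMIs equals 20 CPM, and 44 Sox17-negative cells were shallower than that. A pair of Sox17-high cells from d8 had unusual contents, with ERCC spike-in RNA making up 80.2% and 43.1% of their counts. Some Sox17-negative cells had such contents too, among them d6p cells with 76.3%, 63.2% and 60.1%. All these cells were kept in the main comparison. Each gene was given the mean log2(CPM + 1) of the Sox17-high cells minus that of the Sox17-negative cells, the latter weighted to the time points of the former. A difference of 1 or more on this scale, which for well detected genes is a change of 2-fold, is called higher or lower below. The scale understates changes of low genes and weighs how many cells express a gene as well as how strongly.

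Of 9208 genes tested (mean of both groups at least 1 on the log2 scale), 740 were higher in Sox17-high cells (8.04%) and 156 were lower (1.69%). Only 43 differed by 2 or more upwards and 3 downwards. The minimum holds for the mean of both groups, so 73 of the 740 genes passed it with a Sox17-negative mean under 1 and 17 of the 156 with a Sox17-high mean under 1, and the filter fixed the direction of such genes. The distribution leaned upwards as a whole, with a median of 0.18 and 64.6% of genes above 0. Higher genes made up 82.6% of these calls. When the ratio of mean CPM replaced the mean of log2 values, they made up 42.4%, because 949 genes were then higher and 1289 lower. Direction was the same at all 6 time points for 208 of the 740 higher genes (28.1%), 62 of the 156 lower genes (39.7%) and 5.83% of all tested genes. The called genes were picked by their mean over these same cells, so larger shares than among all genes follow from that choice. After every cell was thinned to 50000 UMIs, which left 19 Sox17-high cells, 550 of the 740 stayed at 1 or more and 104 of the 156 at -1 or less. Without d4 the lower genes numbered 391, and without d8 265. Each Sox17-high cell was also set against the 5 Sox17-negative cells of its time point nearest in depth. Of the 740 genes 589 then stayed at 1 or more, and of the 156 genes 125 stayed at -1 or less.

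**Figure D2:**
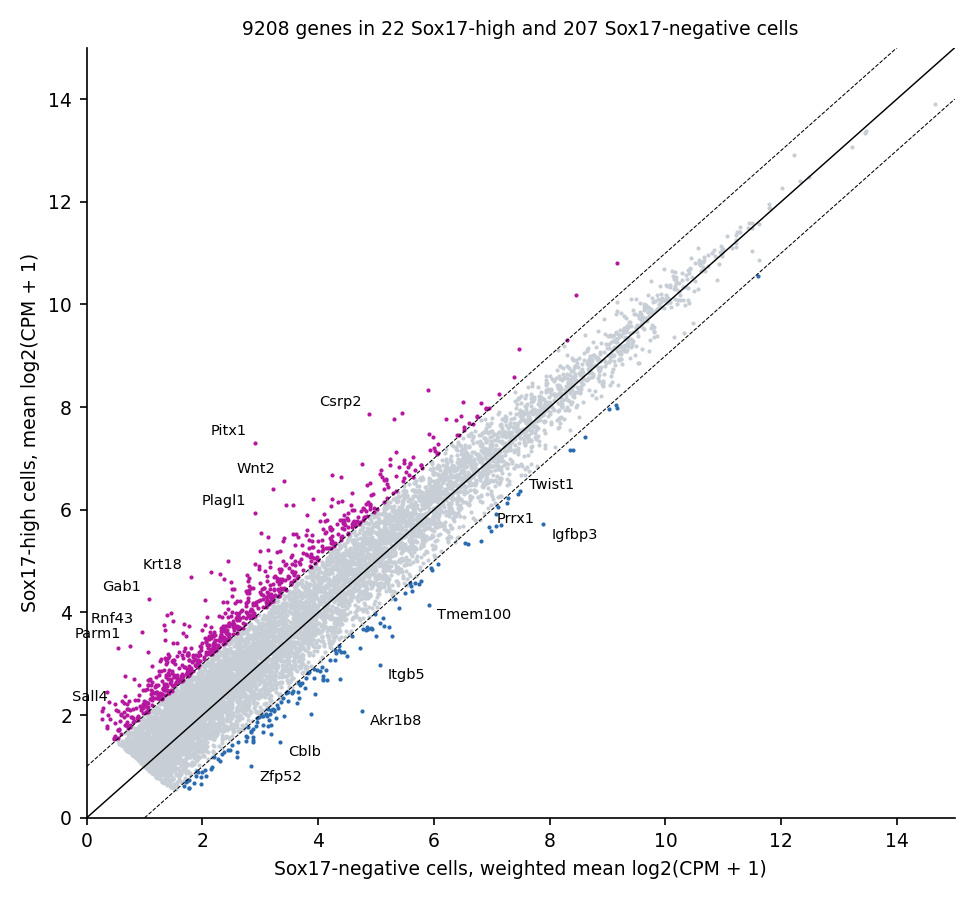
Mean log2(CPM + 1) of 9208 genes in 22 Sox17-high cells against the weighted mean in 207 Sox17-negative cells, with the solid line at equality and dashed lines at a difference of 1 either way. Magenta marks the 740 higher genes and blue the 156 lower ones, and *Pitx1* stands farthest above the line with 4.39.

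*Pitx1* was the gene with the largest difference of all. It encodes a paired-type homeodomain transcription factor known from the hindlimb and the pituitary, and lies on NCBIM37 chromosome 13 from 55926415 to 55937553 on the minus strand. In Sox17-high cells *Pitx1* ran from 0 through a median of 520 CPM to 2738 CPM. In Sox17-negative cells it ran from 0 through a weighted median of 4.43 CPM to 3423 CPM, and in intermediate cells the mean was 81.2 CPM. The groups thus overlapped in range, but 19 of 22 Sox17-high cells lay above the median of the negative ones, and 20 had a *Pitx1* UMI. A level of 300 CPM or more was reached by 13 of 22 Sox17-high cells (59.1%, 36.4% to 79.3%), 8 of 90 intermediate cells (8.89%, 3.92% to 16.8%) and 12 of 207 Sox17-negative cells (5.80%, 3.03% to 9.91%). Such intervals cover counting error only.

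The difference in mean log2(CPM + 1) of *Pitx1* was 4.39, with an SD of 3.40 over the Sox17-high cells and 2.71 over the Sox17-negative ones. By time point it was 4.72 at d3, 4.37 at d4, 6.40 at d5, 4.36 at d6p, 2.46 at d8 and 5.94 at d8c. It was therefore present at every time point and smallest at d8, where the Sox17-high cells nearest to the threshold are. Leaving out any 1 Sox17-high cell kept it between 4.17 and 4.76. At d0 *Pitx1* had a mean of 17.8 CPM and at d20 of 668 CPM, so the mean of 559 CPM in early Sox17-high cells lay nearer to d20. Not every Sox17-high cell followed. The d4 cells with 56.5 and 66.9 CPM of *Sox17* had 0 and 0.97 CPM of *Pitx1*, and a d8 cell with 49.1 CPM had none. Those d4 cells carried running numbers 59 and 80. The other Sox17-high d4 cell numbered over 48, number 86, had 374 CPM of *Pitx1*. Most Sox17-negative d4 cells numbered over 48 had no *Pitx1* UMI, whereas most of those numbered up to 48 had at least 1. Number range and cell can therefore not be told apart for d4 cells 59 and 80.

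**Figure D3:**
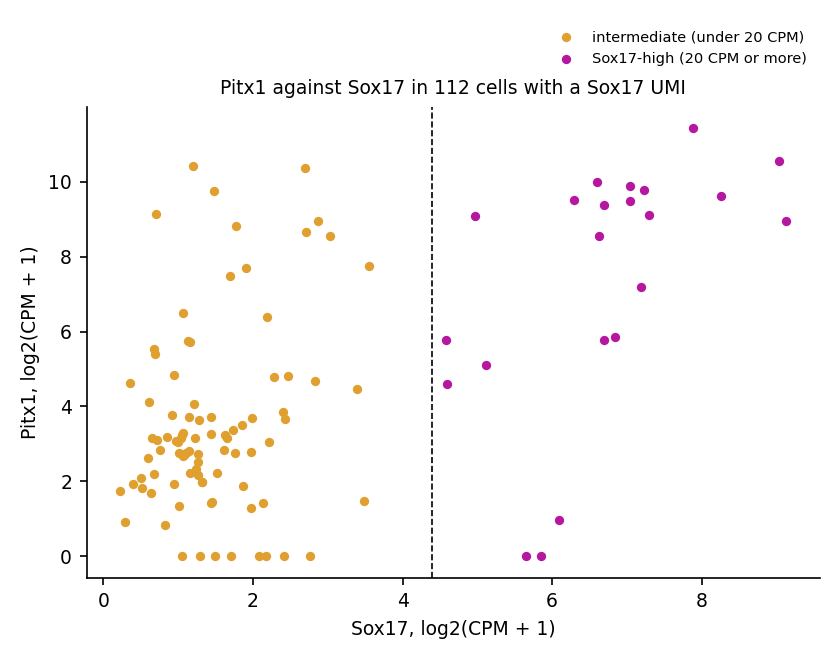
*Pitx1* against *Sox17*, both as log2(CPM + 1), in the 112 early cells with a *Sox17* UMI, with the dashed line at 20 CPM of *Sox17*. To the right of the line 13 of 22 cells have 300 CPM or more of *Pitx1*, and to the left 8 of 90.

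The 15 largest positive differences, *Pitx1* first, included genes of transcription and signaling. They were named by a rule that asks for the same sign at d4, d5 and d8, after thinning and with matched depth. *Wnt2*, a ligand of the Wnt pathway, ran from 2.84 through 104 to 331 CPM in Sox17-high cells and from 0 through 9.06 to 435 CPM in Sox17-negative cells. All 22 Sox17-high cells had *Wnt2* UMIs, and the difference was 3.15. Unlike *Pitx1*, *Wnt2* had no UMI in d20 cells (mean 0 CPM), and at d0 its mean was 12.1 CPM.

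*Gab1*, an adaptor protein downstream of receptor tyrosine kinases, had medians of 31.9 CPM and 0 CPM in the same order and a maximum of 259 CPM against 109 CPM, which gave a difference of 3.18. *Plagl1*, an imprinted zinc finger factor, differed by 3.03 (mean 171 against 36.2 CPM). *Hoxc9*, a homeobox gene of the posterior body axis, differed by 2.65 (125 against 23.4 CPM), although not at d3, where the difference was -0.13. *Myc*, which drives growth and proliferation, differed by 2.56 (65.7 against 29.1 CPM) and had -0.31 at d3. Each of these 4 genes had UMIs in 19 of the 22 Sox17-high cells, so none rested on a single cell.

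*Csrp2*, a LIM-domain protein of smooth muscle, had UMIs in all 22 Sox17-high cells, from 15.3 through 417 to 888 CPM, against a median of 18.1 CPM (difference 2.98). *Tnnt3*, a troponin T of fast skeletal muscle, differed by 3.20 (316 against 59.4 CPM). *Tnnt3* overlaps the opposite-strand gene *Gm14492*, and whether counting used strand is not given in the sources used here.

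*Ch25h*, which makes 25-hydroxycholesterol, differed by 2.56, *Phactr2*, a regulator of actin and protein phosphatase 1, by 2.65 and *Parm1*, a mucin-like membrane protein, by 2.60. *Parm1* was uneven, with differences of 4.70 at d4 but -0.96 at d6p. *2700046A07Rik* had 2.77 and *Tacc3*, a spindle protein, 2.53. In each Sox17-high cell 7 to 14 of the 15 genes (median 10) lay above the upper quartile of the Sox17-negative cells, whereas intermediate cells had 1 to 13 (median 5) and Sox17-negative cells 0 to 14 (median 3). These counts describe genes that were chosen for their difference between the same cells, and only the intermediate cells had no part in that choice. The intermediate cells were, however, deeper than the Sox17-negative cells. At d4 and d8 most of them had running numbers up to 48, against 18 of 48 and 10 of 25 Sox17-negative cells. Depth and number range can thus not be told apart from *Sox17* in their counts. With 12 or more of the 15 there were 10 Sox17-high cells, 1 intermediate cell and 2 Sox17-negative cells.

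**Figure D4:**
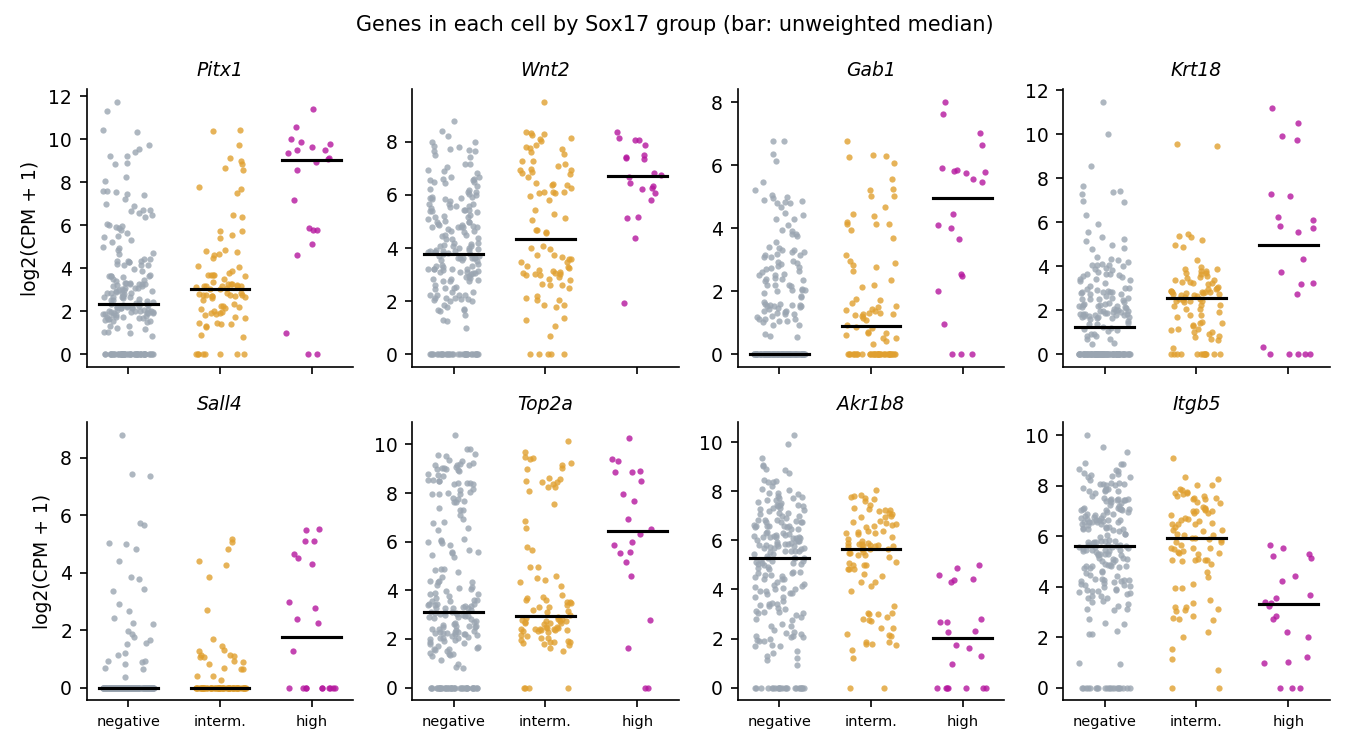
Log2(CPM + 1) of 8 genes in each of 207 Sox17-negative, 90 intermediate and 22 Sox17-high cells, with bars at unweighted medians. *Pitx1*, *Wnt2*, *Gab1*, *Krt18*, *Sall4* and *Top2a* have higher medians in Sox17-high cells and *Akr1b8* and *Itgb5* lower ones, while intermediate cells lie near the Sox17-negative cells.

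The 10 largest negative differences were led by *Akr1b8*, an aldo-keto reductase (NCBIM37 chromosome 6, 34304119 to 34318463). It ran from 0 through 3.08 to 30.6 CPM in Sox17-high cells and from 0 through 43.1 to 1272 CPM in Sox17-negative cells. All 22 Sox17-high cells lay below the median of the Sox17-negative cells, and the difference of -2.67 was negative at all 6 time points. *Akr1b8* has close relatives in the genome whose reads could be split, so its value is uncertain to that extent.

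*Itgb5*, the integrin beta-5 subunit of receptors for vitronectin, had 0 through 8.86 to 49.9 CPM against 0 through 43.1 to 1041 CPM. Its difference was -2.08, with the smallest spread over d4, d5 and d8 of these 10 genes (SD 0.34). *Igfbp3*, which binds insulin-like growth factors, had a median of 44.6 CPM against 337 CPM and differed by -2.16, but only by -0.21 at d4. Its highest Sox17-high cell reached 3687 CPM, and without that cell the mean fell from 269 CPM to 106 CPM.

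The others were *Cblb*, a ubiquitin ligase that dampens receptor signaling (-1.86), *Gria3*, a glutamate receptor subunit (-1.86), *Zfp52*, a member of a large zinc finger family (-1.82), *Tmem100*, a small membrane protein (-1.77), *Rnft1* (-1.73), the chloride transporter gene *Clcn4* (-1.67) and *Cped1* (-1.54). *Rnft1* overlaps *Rps6kb1* on the other strand, and at d8c its difference was 2.88, against negative values at the other 5 time points.

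Of 5 partners of *Sox17* in XEN cells, 4 had UMIs in some Sox17-high cells and *Foxa2* had none. *Sall4*, a zinc finger factor of XEN and embryonic stem cells, had UMIs in 12 of 22 Sox17-high cells (54.5%, 32.2% to 75.6%) against 33 of 207 Sox17-negative cells (15.9%, 11.2% to 21.7%). After thinning to 50000 UMIs it was found in 7 of 19 Sox17-high cells (36.8%, 16.3% to 61.6%) and 12 of 196 Sox17-negative cells (6.12%, 3.20% to 10.5%), the cells left out being 3 and 11 shallower ones. Its level ran from 0 through 2.61 to 44.5 CPM in Sox17-high cells and from 0 through 0 to 446 CPM in Sox17-negative cells, with a mean of 11.0 CPM against 113 CPM at d20. The difference of 1.60 was positive at all 6 time points, from 0.23 at d8c to 5.0 at d3. *Gata6*, an endoderm factor that MEFs also transcribe, had UMIs in 12 of 22 cells. After thinning it was found in 7 of 19 Sox17-high cells (36.8%, 16.3% to 61.6%) and 31 of 196 Sox17-negative cells (15.8%, 11.0% to 21.7%), with overlapping intervals. The *Gata6* difference of 1.31 was positive at d3, d4, d5 and d8 and negative at d6p (-1.02) and d8c (-1.38).

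*Gata4*, a zinc finger factor of endoderm, had only 3 UMIs in 3 of the 22 cells and differed by -0.04. *Foxa2*, a pioneer factor of endoderm, had none in either group, and reading 0 of 22 as up to 3 cells allows a share of 13.6% with a UMI. *Sox7*, a close relative of *Sox17*, differed by -0.35 and had UMIs in 3 Sox17-high cells. A UMI of *Sall4*, *Gata4* or *Foxa2* was present in 13 of 22 Sox17-high cells (59.1%, 36.4% to 79.3%) and in 39 of 207 Sox17-negative cells (18.8%, 13.8% to 24.8%). Both *Sall4* and *Gata4* were found in 2 Sox17-high cells. After thinning it was present in 7 of 19 and in 15 of 196 cells (7.65%, 4.35% to 12.3%).

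Of 12 XEN transcription factors listed, 3 reached the minimum for testing. *Sall4* and *Gata6* did so only through the Sox17-high cells, so that their direction was set by that filter, and *Tcf7l2*, a partner of beta-catenin in Wnt signaling, differed by 1.45. Of the other 9, the 6 genes *Foxa2*, *Hnf4a*, *Foxq1*, *Esx1*, *Elf3* and *Gbx2* had no UMI in any Sox17-high cell. Genes for the products of the XEN state were far below their d20 level. Among 25 genes for XEN transport, matrix and surface proteins 13 were tested, 3 were higher (23.1%, beside 8.04% of all tested genes), none was lower, and the median difference was 0.33. The 3 were *Bex4* (2.31), *Cited1*, a transcriptional coactivator (2.19), and *Dab2*, an endocytic adaptor (1.31). Their summed level had a median of 807 CPM in Sox17-high cells, 628 CPM in Sox17-negative cells and 26963 CPM at d20. *Amn*, *Lrp2*, *Afp*, *Apoa1* and *Srgn* were at 0 in all Sox17-high cells. By these markers the Sox17-high cells carried *Sox17* and at most part of the factor set, and not the XEN profile.

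**Figure D5:**
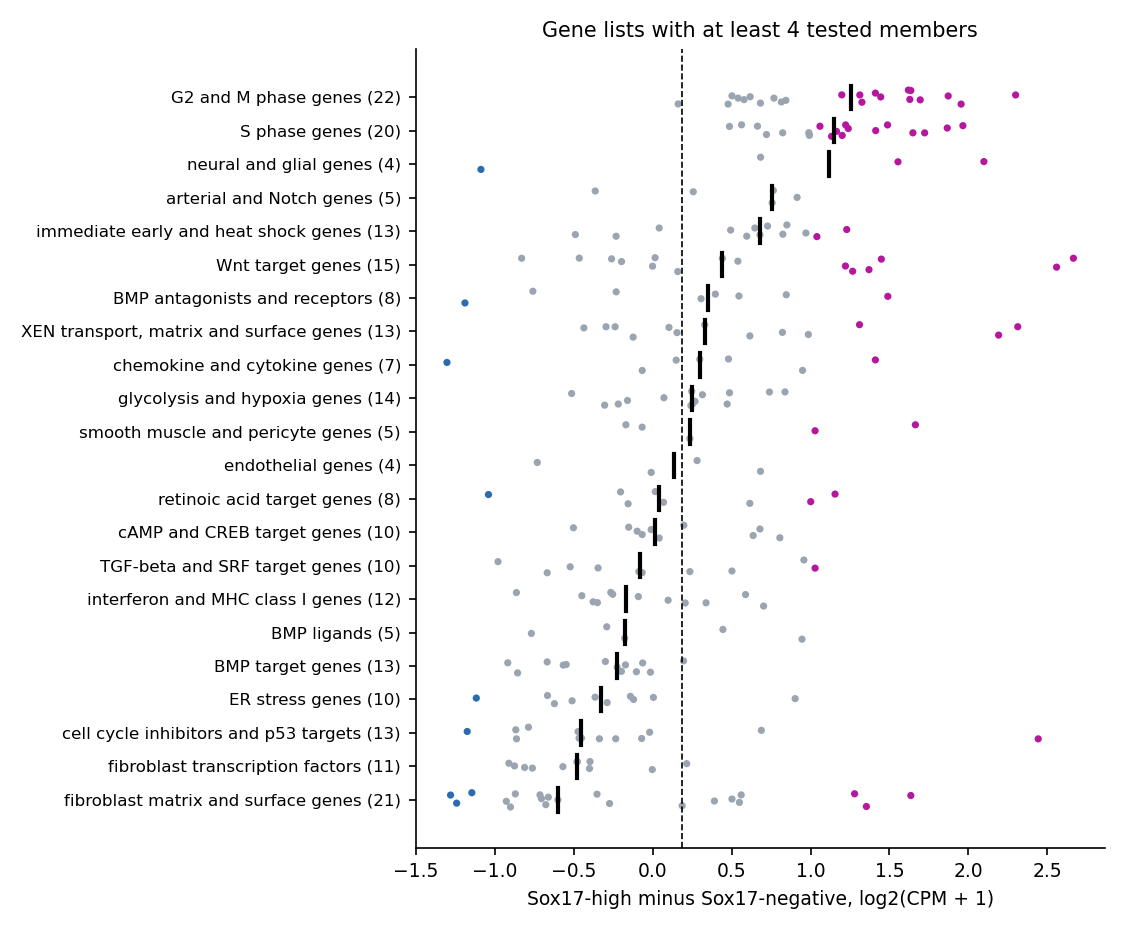
Difference between Sox17-high and Sox17-negative cells for each tested gene (points) of lists with at least 4 tested genes, whose number stands in parentheses, with bars at list medians and the dashed line at the median of all tested genes, 0.18. S phase and G2 and M phase genes have the highest medians, 1.15 and 1.26, and fibroblast matrix genes the lowest, -0.60.

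The fibroblast factors stood slightly lower. Of 18 listed, 11 were tested, and none passed a difference of 1 in either direction. Beside 8.04% higher and 1.69% lower of all tested genes, few calls would fall in a list of this size. Below 0 lay 10 of the 11, with a list median of -0.48, whereas 64.6% of all tested genes lay above 0. *Prrx1* ran from 0 through 103 to 674 CPM against 0 through 167 to 1282 CPM, a difference of -0.91. *Twist1* differed by -0.81 (median 111 against 212 CPM), *Twist2* by -0.48 (291 against 332 CPM) and *Osr1* by -0.57 (1.47 against 2.63 CPM). All 22 Sox17-high cells still had *Twist1* and *Twist2* UMIs. The summed level of the list was 297 to 1782 CPM in Sox17-high cells (median 879) and 166 to 3324 CPM in Sox17-negative cells (median 1396), and 2 of 22 Sox17-high cells lay above the latter median. These sums remained above the d20 median of 48.9 CPM in every Sox17-high cell. When every cell with a *Sox17* UMI was counted as high, the list median became 0.39.

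All 21 fibroblast matrix and surface genes were tested, with a median of -0.60. Of these 3 were higher and 3 lower (14.3% each, beside 8.04% and 1.69% of all tested genes). *Aebp1*, *Col6a1* and *Pdgfrb*, a receptor for platelet-derived growth factor, were lower by 1.28, 1.24 and 1.15 on the log2 scale. *Postn* (1.64), *Lox* (1.35) and *Loxl1* (1.28) were higher, the last 2 being enzymes that crosslink collagen and elastin. For *Postn* the direction depended on the scale, since its mean was 65.0 CPM against 84.9 CPM in Sox17-negative cells. *Col1a1*, a main collagen of fibroblasts, had a mean of 1638 CPM against 2989 CPM and a difference of -0.35. The summed level of the list was 1579 to 25028 CPM in Sox17-high cells (median 3944) and 340 to 48354 CPM in Sox17-negative cells (median 7855), and 6 of 22 Sox17-high cells lay above the latter median. The 4 highest Sox17-high cells, at 13441 to 25028 CPM, all came from d8 and included those with 80.2% and 43.1% ERCC RNA. The 6 cells held 1 to 16 *Sox17* UMIs and included all 4 that passed the threshold with 3 or fewer. Sox17-high cells with 27 or more *Sox17* UMIs stood at 1579 to 4401 CPM, as did the d4 cells with 6 and 10 UMIs.

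Cell cycle genes were the lists with the most members higher. Of 20 S phase genes 12 were higher and none lower, and of 22 G2 and M phase genes 12 were higher and none lower, with all 42 above 0. More than 50% of each list was thus higher, beside the 8.04% of all tested genes. *Top2a*, the topoisomerase of chromosome separation, had a median of 85.3 CPM against 7.61 CPM (difference 2.30), *Ccnb2*, a mitotic cyclin, 64.7 against 5.68 CPM (1.95), and *Rrm1*, a subunit of the enzyme that makes deoxynucleotides, 76.8 against 18.4 CPM (1.97). The summed level of the 42 genes was 279 to 9170 CPM in Sox17-high cells (median 3424) and 159 to 16878 CPM in Sox17-negative cells (median 757), and 20 of 22 Sox17-high cells lay above that median. The ranges overlapped, and the highest cells were Sox17-negative.

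Because these genes moved with the groups, each Sox17-high cell was also set against the 5 Sox17-negative cells of its time point nearest in this summed level, an alternative chosen after seeing the data. The median difference then fell to 0.41 for S phase genes and 0.12 for G2 and M phase genes, which the matching itself brings about. Of the 740 higher genes 509 stayed at 1 or more and of the 156 lower genes 70 stayed at -1 or less. *Pitx1* had 3.91, *Wnt2* 2.75, *Gab1* 3.11, *Akr1b8* -2.59 and *Itgb5* -1.56 in this comparison, and *Tacc3* fell to 1.31. Inhibitors of the cycle and p53 targets had a median of -0.45, with 11 of 13 below 0. *Cdkn1c*, which encodes the inhibitor p57, was an exception with 2.44 (mean 744 against 172 CPM), and it had 2.60 with the cycle matched. *Cdkn2b* was lower by 1.18, and *Cdkn1a* had -0.87 (median 1029 against 1834 CPM).

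Among the pathways that the cocktail or the study addresses, Wnt target genes contained 6 of 15 tested members that were higher (40.0%, beside 8.04% of all tested genes) and none that was lower, with a median of 0.44. The median was 0.29 with matched depth and 0.096 with the cycle matched. *Rnf43*, a ubiquitin ligase that removes Wnt receptors, had a median of 15.6 CPM against 0 CPM and a difference of 2.67. *Axin2*, a feedback inhibitor of the pathway, differed by 1.27 (mean 230 against 105 CPM), *Sp5* by 1.45, *Ccnd1*, cyclin D1, by 1.37 and *Nkd2* by 1.22. *Myc* belongs here as well. Other targets did not follow, as *Lef1* differed by 0.00, *Notum* by -0.47 and *Dkk1* by -0.83. On the ratio of mean CPM the list median was -0.07.

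Of 13 BMP target genes none passed in either direction, beside 8.04% higher and 1.69% lower of all tested genes. In a list of this size such shares amount to few genes. Below 0 lay 12 of the 13 (median -0.23), whereas 64.6% of all tested genes lay above 0. *Id1*, *Id2* and *Id3*, direct targets of BMP receptors, differed by -0.10, -0.55 and -0.30. *Bmp2*, a ligand, had a median of 15.8 CPM against 2.79 CPM and a difference of 0.95. It was 5.06 at d8c and -0.87 at d3. Of 5 tested genes listed as BMP ligands none passed. The list median of -0.18 (0.13 with matched depth) was the value of *Bmp1*, which encodes a protease and not a ligand. The ligands were mixed, with *Bmp2* at 0.95, *Bmp4* at 0.44, *Bmp6* at -0.29 and *Bmp7* at -0.77. Among 8 tested antagonists and receptors (median 0.35) *Sostdc1* was higher (1.49) and *Grem1* lower (-1.19), 12.5% each. *Grem1* had UMIs in 5 Sox17-high cells.

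Retinoic acid targets were mixed, with *Tgm2* and *Crabp2* higher (1.16 and 1.00) and *Crabp1* lower (-1.04) among 8 tested (median 0.04). *Crabp1*, a binding protein for retinoic acid in the cytoplasm, had a median of 1443 CPM against 3540.3 CPM, and was lower at all 6 time points. Of 10 tested cAMP targets none passed (median 0.02), where such shares amount to few genes. Of 10 TGF-beta and SRF targets 1 was higher, *Acta2* (1.03), a share of 10.0% that lies near the 8.04% of all tested genes.

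*Krt18* and *Krt19*, keratins of simple epithelia, were the only genes of 16 epithelial ones that reached the minimum for testing. *Krt18* ran from 0 through 32.9 to 2343 CPM in Sox17-high cells and from 0 through 2.02 to 2877 CPM in Sox17-negative cells, a difference of 2.88 with 8.08 at d6p and -0.26 at d3. *Krt19* differed by 1.61, with UMIs in 12 cells. *Krt8*, the partner with which keratin 18 forms filaments, had UMIs in 6 Sox17-high cells and a mean of 24.0 CPM against 0.93 CPM, but did not reach the minimum for testing. *Cdh1*, *Epcam*, *Cldn3*, *Cldn4*, *Esrp1*, *Esrp2* and *Grhl2* were at 0 in all 22 cells.

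Among markers of other cell types known for *Sox17*, the endothelial ones were low. Of 20 endothelial genes 4 were tested and none passed (median 0.14). Their summed level was 0 to 308 CPM in Sox17-high cells (median 41.2) and 0 to 667 CPM in Sox17-negative cells (median 43.1). *Pecam1*, *Emcn*, *Cldn5*, *Erg*, *Robo4*, *Tal1* and *Adgrl4* had no UMI in Sox17-high cells. Of 5 tested arterial and Notch genes none passed, but 4 lay above 0, with a median of 0.76 beside 0.18 for all tested genes. The summed level of that list had a median of 96.4 CPM against 87.0 CPM. Beside 8.04% higher and 1.69% lower of all tested genes, few calls would fall in lists of 4 or 5 genes. None of 16 genes of anterior and definitive endoderm could be tested, and *Cd68* (0.00) was the only one of 11 immune genes. *Ptprc* and *Lyz2* were at 0.

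Muscle and neural genes were less uniform. *Myl9* (1.66) and *Acta2* were higher among 5 tested smooth muscle and pericyte genes (40.0%, beside 8.04% of all tested genes). The others were *Tagln* (0.24), *Cnn1* (-0.07) and *Notch3* (-0.17), and the list median of 0.24 became -0.37 after thinning. The summed level of the list had a median of 1257 CPM against 491 CPM and a mean of 1955 CPM against 1548 CPM. *Stmn2* (2.10) and *Nes* (1.55) were higher and *S100b* (-1.09) lower among 4 tested neural and glial genes, with sums of 2.07 to 1036 CPM in Sox17-high cells (median 143) and 0 to 5809 CPM in Sox17-negative cells (median 45.7). Of 13 skeletal muscle genes 2 were tested and none passed, and *Myod1*, *Myf5*, *Myf6*, *Pax7* and *Mymk* were at 0. These marker levels moved in part with the groups, and their part in the other differences was not tested.

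The genes were also set against the course as a whole, with d20 minus d0 computed on the same scale. Among the 740 genes higher in early Sox17-high cells, 170 were higher at d20 than at d0 by 1 or more (23.0%) and 144 were lower (19.5%), beside 11.6% and 23.7% of all tested genes. Among the 156 lower genes, 10 (6.41%) were higher and 82 (52.6%) lower at d20. The share that stood higher at the end was thus larger among the higher genes than among all tested genes, and more than 50% of the lower genes stood lower at the end.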

How the data were processed

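Single-cell RNA-seq of the C6FAE course was used. The authors assigned reads to cells by barcode and, after trimming, aligned the reads to the transcriptome of mm9 and collapsed duplicates on their UMIs. The deposited values are whole-number counts of these UMIs and were not scaled. The aligner is not given in the sources used here. The table held 808 cells, 23197 genes and 92 ERCC RNAs. Dates stood in place of 26 gene names, and 4 duplicated entries were left out. Depths of 17633 UMIs and more set the counting error.

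Cells could not be assigned to the 10 batches, so they formed 1 sample, and the main comparison has no test. Library sizes did not include ERCC RNAs. CPM were taken to log2 with a pseudocount of 1. Sox17-negative cells were weighted to the time points of the Sox17-high cells, weighted medians included. Tested genes had group means averaging at least 1 on the log2 scale. Shares of cells have exact Clopper-Pearson intervals at 95%, for counting error only.

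Named genes were the 15 largest positive and 10 largest negative differences among genes with UMIs in at least 25% of the cells of the higher group and of 1 sign at d4, d5 and d8 (the time points with at least 3 Sox17-high cells), after thinning and with matched depth. Added to these were 10 master genes and up to 3 genes a direction in each of 29 lists. Results for 2 listed genes are not reported here, and those genes were left out of the lists. *Col1a1*, *Lef1*, *Axin2*, *Ccnd1*, *Nkd2*, *Id1*, *Id2*, *Id3* and *Krt8* were chosen after their values were seen. The cells, lists and rules were chosen with earlier results of these data known. Alternatives covered weighting, thresholds, filters, pseudocount, depth, scaling, time points and single cells. Positions are from GENCODE M1 (NCBIM37), counted from 1. Python 3.11.15, numpy 2.4.6, pandas 2.3.3 and scipy 1.17.1 were used, with scaling factors from edgeR 4.0.16 and DESeq2 1.42.0 under R 4.3.3. The comparison was tested on simulated data.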

Additional observations from a re-analysis of the deposited data

How the results depend on the processing

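The 740 higher genes and 156 lower genes became 132 and 0 when every cell with a *Sox17* UMI was counted as high. They became 91 and 19 with a pseudocount of 10, and 1159 and 342 after thinning to 50000 UMIs. The lower genes numbered 1289 on the ratio of mean CPM, 81 with no filter on cells, 91 with at least 2000 genes per cell and 262 with at least 6000. They numbered 391 without d4, 265 without d8 and 297 with at least 5 *Sox17* UMIs against negative cells of at least 150000 UMIs (chosen after seeing the data). Leaving out 1 Sox17-high cell in turn gave 691 to 877 higher and 139 to 198 lower genes. TMMwsp and DESeq2 factors, matched depth, weights to number ranges, thresholds of 10 and 50 CPM and the other settings kept both counts within 1.5 times.

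Of 4400 gene and list values under alternatives, 4158 moved by less than the spread between time points, 236 moved by more, and 6 that had differed by 1 or more changed sign. Medians of lists were less stable, since 18 of 28 changed sign under at least 1 alternative other than leaving out single cells, 6 of them after thinning. With every cell with a *Sox17* UMI as high, *Zfp52* had 0.086, *Tmem100* 0.20, *Aebp1* 0.12, *Pdgfrb* 0.083 and *Crabp1* 0.091. *Postn* had -0.38 on the ratio of mean CPM. The cause was not tested. No paired analysis was possible because cell names carry no batch and the comparison has no test. Depth limits low genes most, since 44 Sox17-negative cells could hold *Sox17* at 20 CPM unseen.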

Other observations

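Position genes and Wnt ligands were looked at in lists added after the data were seen. *Hoxc9* and *Wnt2* were already among the 15 genes named for their difference, so their calls here are not separate results. Of 5 tested Hox genes of groups 9 to 13, *Hoxc9* (2.65) and *Hoxa10* (1.26) were higher in Sox17-high cells (40.0%, beside 8.04% of all tested genes). All 5 lay above 0, beside 64.6% of all tested genes, and the median was 0.92. Of 11 tested Hox genes of groups 1 to 8, *Hoxc8* (1.08) was higher, a share of 9.09% that lies near that of all tested genes. Above 0 lay 9 of the 11, and the median was 0.32, beside 0.18 for all tested genes. *Tbx4*, a hindlimb gene like *Pitx1*, had UMIs in 4 of 22 Sox17-high cells and was too low to be tested. Of 4 tested Wnt ligands, *Wnt2* and *Wnt16* (1.33) were higher.

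Immediate early and heat shock genes had a median of 0.68 with 11 of 13 above 0, and *Egr1* (1.23) and *Atf3* (1.04) were higher. *Cxcl12* was higher (1.41) and *Ptgs2* lower (-1.30) among 7 tested chemokine and cytokine genes. *Herpud1* (-1.12) was lower among 10 tested ER stress genes, whose median was -0.33. Of all tested genes 8.04% were higher and 1.69% lower, which amounts to few calls in short lists. None passed among 14 glycolysis and hypoxia genes (median 0.25) and 12 interferon and MHC class I genes (-0.17). Nor did any of 3 SRY-box genes (0.38) and 2 tested pluripotency and germ line genes (0.14). After thinning the last 3 medians were 0.079, -0.03 and -0.14.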
